A study of Danio rerio with 54 samples.

Results

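The mitosis genes described here are 9 genes whose products drive or mark cell division: mki67, top2a, cdc20, ccnb1, ccna2, cdk1, plk1, aurkb and bub1. They were taken by name from the 31953 genes of a zebrafish RNA-seq table, and each name matched 1 gene. The study asked how embryos with and without the transcription factor Nfe2 respond to oxidants during development. The libraries came from poly(A) RNA of 54 pools of 30 whole embryos, 3 pools in each of 18 groups. The groups crossed genotype (nfe2 knockout, wildtype) with treatment (diquat at 20 µM, tert-butyl hydroperoxide or tBOOH at 1 mM, water) and with the age at the start of dosing (2, 48 or 96 hours post fertilisation, hpf). Both agents raise reactive oxygen species, the herbicide diquat by redox cycling and tBOOH as a peroxide.

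The knockout was a germline line made with TALEN nucleases in embryos of mixed AB and TL ancestry, with a frameshift deletion of 8 bases in exon 3. The wildtype was AB, so genotype and genetic background differed together. Dosing lasted 4 h and was followed by 4 h of recovery, according to the treatment protocol, whereas the sample descriptions give 2, 48 and 96 hpf as the times of sampling. The ages used below as group names are those at the start of dosing. Of 47 gastrula and early segmentation genes, 36 passed the filter on low values in the 2 hpf series, 10 in the 48 hpf series and 7 in the 96 hpf series.

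Reads recovered from the steps between values ran from 0.527 to 1.04 M per library (median 0.772 M). They are inferred from the values and are far fewer than the depth stated by the study, a difference not resolved here. The 2 hpf libraries were the deepest, with a median of 0.836 M, and those of 48 and 96 hpf had medians of 0.762 and 0.74 M. The values are read counts divided by a size factor for each library, called normalised counts below. They are not scaled by gene length and are compared only within a gene. The sum over the 9 genes given below is the exception, and it weights genes by their counts. The mRNA of nfe2 itself ran from 8.17 to 34.4 over the 9 knockout libraries of the 2 hpf series and from 1.60 to 19.9 over the 9 wildtype libraries, and at later stages it reached at most 4.39 in knockout and 3.44 in wildtype libraries. Because a frameshifted gene can still be transcribed, the nfe2 mRNA is no check of genotype.

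Entry into mitosis is driven by Cdk1, a kinase that is active only when bound to a cyclin. Further kinases build the spindle and correct the attachment of chromosomes, and a checkpoint holds back the anaphase-promoting complex until all chromosomes are attached. In many cell types transcripts of these genes peak in G2 and M phase, so that they are widely read as signs of dividing cells, and early zebrafish embryos also carry maternal stocks of cell cycle mRNAs.

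Among the cyclins and their kinase, ccna2 (ENSDARG00000011094) encodes cyclin A2, which acts in S phase and G2, ccnb1 (ENSDARG00000051923) encodes cyclin B1, the partner of Cdk1 at mitotic entry, and cdk1 (ENSDARG00000087554) encodes the kinase. The kinase genes plk1 (ENSDARG00000058471) and aurkb (ENSDARG00000037640) encode Polo-like kinase 1, which acts on centrosomes and the spindle, and Aurora B, the kinase of the chromosomal passenger complex. The checkpoint kinase Bub1 is encoded by bub1 (ENSDARG00000077029), and cdc20 (ENSDARG00000100741) encodes the activator of the anaphase-promoting complex that the checkpoint inhibits. On chromosomes, top2a (ENSDARG00000024488) encodes topoisomerase II alpha, which untangles sister DNA, and mki67 (ENSDARG00000091150) encodes Ki-67, a coat protein of mitotic chromosomes used as a marker of proliferation.

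**Figure D1:**
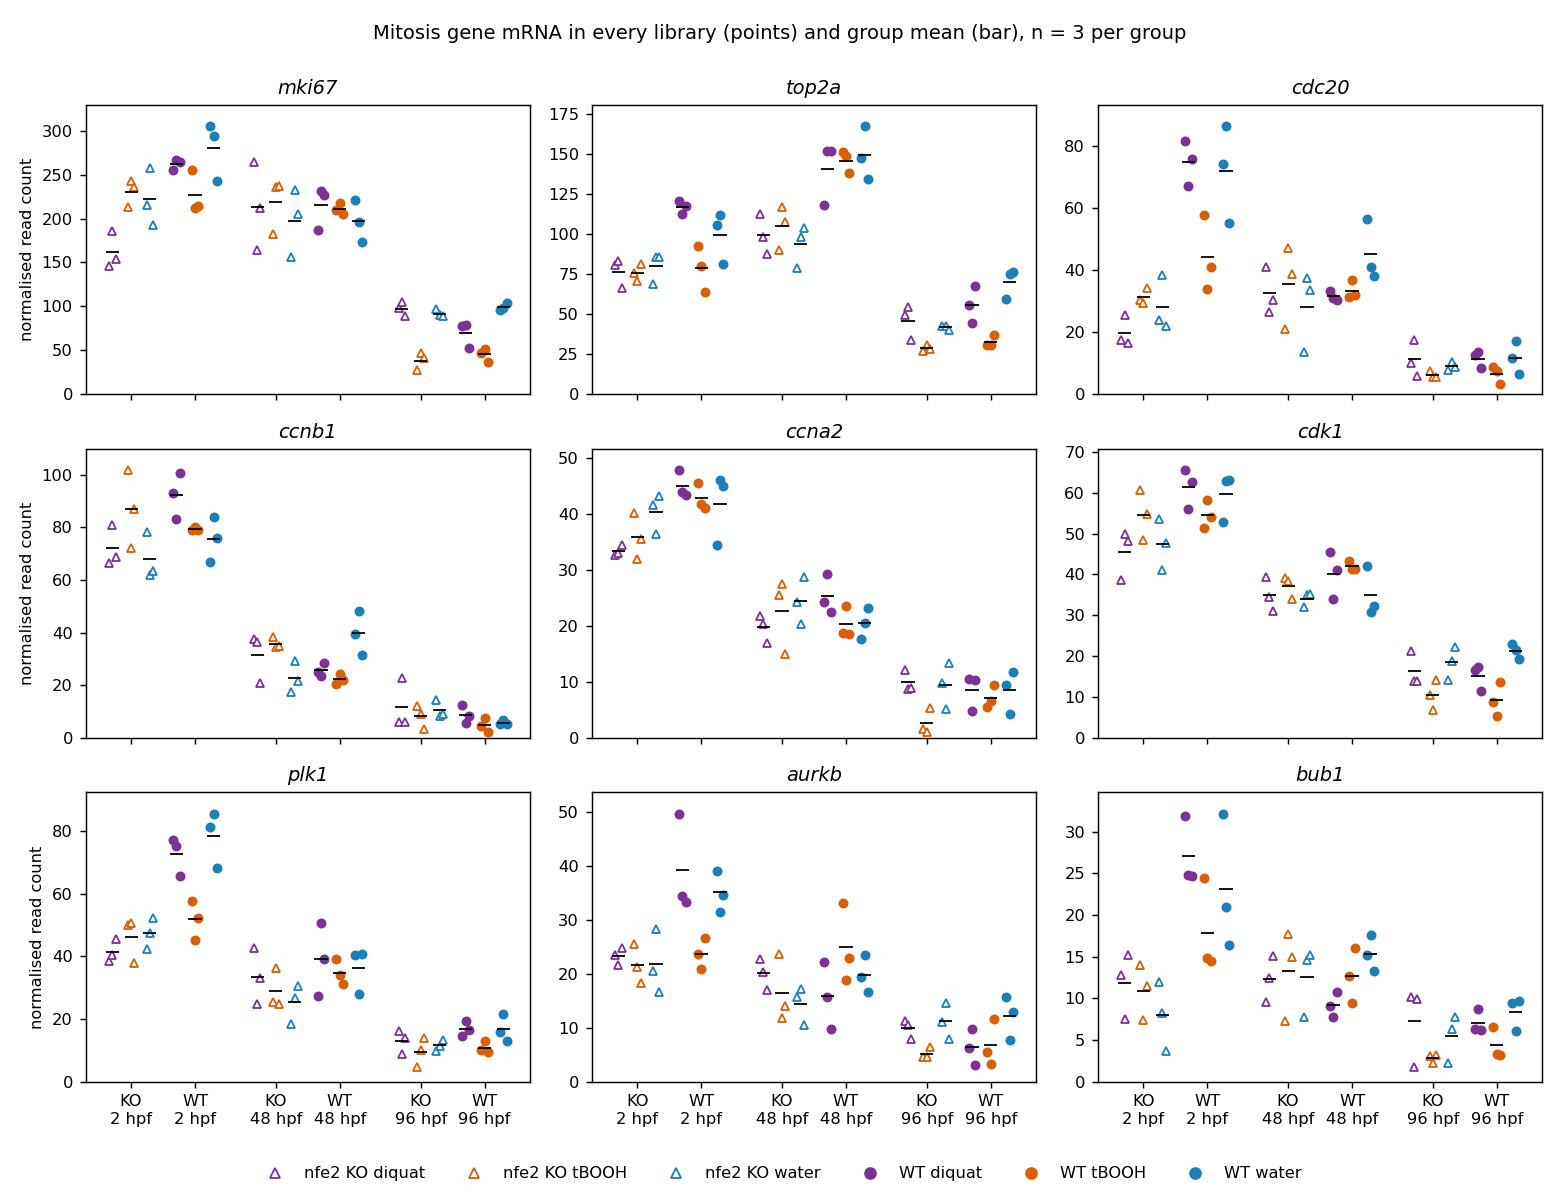
Normalised read count (vertical axis, linear and starting at 0) of each of the 9 genes in all 54 libraries. Points are libraries, horizontal bars are means of 3 libraries, open triangles are nfe2 knockout and filled circles wildtype groups, and colours mark diquat, tBOOH and water. For mki67 the 96 hpf tBOOH libraries sit between 27.2 and 51.3, below every water library of that series, which lie between 89.2 and 104.

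Taken as a sum, the 9 genes were highest in the 2 hpf series of wildtype embryos and lowest after tBOOH at 96 hpf, although top2a by itself was highest in wildtype at 48 hpf. Their summed normalised count averaged 791 ± 29.1 in wildtype diquat at 2 hpf, the highest of the 18 groups, and 112 ± 12.1 in knockout tBOOH at 96 hpf, the lowest (SD, n = 3 each). Since mki67 made up 27.7% to 46.8% of that sum, groups were also ranked by an index that weights the genes equally, the mean over the 9 genes of each log2 value less that gene's mean. The order by the index began with wildtype diquat (1.23), wildtype water (1.12), wildtype tBOOH (0.81), knockout tBOOH (0.63) and knockout water (0.52), all of the 2 hpf series. The libraries of wildtype diquat and wildtype water overlapped in the index, and so did those of wildtype tBOOH, knockout tBOOH and knockout water, each with the next. Wildtype water at 2 hpf and wildtype tBOOH at 2 hpf did not overlap.

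The 48 hpf groups and knockout diquat at 2 hpf (0.44) followed in a narrow band, with 0.49 in wildtype water, 0.39 in wildtype tBOOH, 0.32 in wildtype diquat, 0.32 in knockout tBOOH, 0.30 in knockout diquat and 0.13 in knockout water. Neighbours in this band overlapped, except wildtype tBOOH and wildtype diquat. All 96 hpf groups lay below all others, at -0.74 in wildtype water, -0.87 in knockout diquat, -0.92 in knockout water and -0.95 in wildtype diquat, each overlapping the next. The tBOOH groups at 96 hpf stood apart at the bottom of the order, at -1.51 in wildtype and -1.71 in knockout, and did not overlap. These are ranks of groups by measured values and were not tested.

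The change of the mitosis genes with age was measured in water between the series. Whether a lower level in whole embryos comes from fewer dividing cells or from less RNA in each cannot be told apart in pooled material. Between the 2 and the 48 hpf series in wildtype water, 6 of the 9 genes fell and top2a rose, at an adjusted p under 0.05 in limma. Of all 13205 genes tested, 20.2% were called lower and 38.3% higher in that comparison, and the median gene was higher by 0.39 on the log2 scale, whereas the median of the 9 was -0.76. The p-values here and below measure the spread between pools of embryos.

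The 3 genes of the cyclin and Cdk1 group and both kinase genes were among the 6. For ccnb1 the 3 libraries held 39.6, 48.4 and 31.5 at 48 hpf against 66.7, 83.9 and 76.0 at 2 hpf in wildtype water, with no overlap (log2 change -0.92 ± 0.34 SE, adjusted p = 0.0166 in limma). For plk1 they held 40.4, 27.9 and 40.6 at 48 hpf against 81.2, 85.5 and 68.2 at 2 hpf, again with no overlap (-1.10 ± 0.27, adjusted p = 3.97e-04 in limma). In that comparison 23.6% of all genes were lower without overlap. The changes of ccna2, cdk1, aurkb and mki67 were -0.99, -0.76, -0.80 and -0.51, each past the test. Topoisomerase II alpha moved the other way: top2a held 147, 167 and 134 at 48 hpf against 106, 112 and 81.2 at 2 hpf, a rise of 0.59 ± 0.18 (adjusted p = 0.0042 in limma), or 0.20 above the median gene. For cdc20 (-0.66) and bub1 (-0.52) the change did not pass in limma, and both passed with edgeR. Without the 48 hpf wildtype water replicate 3 the comparison gave 4 calls in place of 7, losing aurkb, ccnb1 and mki67 (adjusted p between 0.0717 and 0.117). Single pools also decided the calls of top2a (2 hpf replicate 3, adjusted p = 0.0506 without it), ccnb1 (2 hpf replicate 2) and mki67 (2 hpf replicate 1). The call of aurkb likewise ended without the low-value filter and without replicate 1 or 3 of the 2 hpf pools or replicate 1 of the 48 hpf pools.

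Knockout embryos in water showed 3 falls over the same step, where 18.9% of all genes were called lower: ccnb1 (-1.55), plk1 (-0.90) and ccna2 (-0.71, adjusted p = 0.0483 in limma). The count was 5 in edgeR, which called cdk1 and aurkb as well. Leaving out any of the 3 water pools at 2 hpf, or water replicate 1 or 2 at 48 hpf, ended the call of ccna2, as did dropping the low-value filter. The difference between the genotypes in this change was not called for any of the 9 (4.05% of all genes were called), and its values ran between -0.63 for ccnb1 and 1.19 ± 0.59 for bub1 (adjusted p = 0.274 in limma).

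Between 48 and 96 hpf all 9 genes were lower in both genotypes. In knockout water 8 fell past the test, against 5.66% of all genes called lower, and in wildtype water 7 fell, against 8.30%. Genes entered this fit with 3 libraries of at least 10 at any stage. At 96 hpf bub1 reached 10 in 1 of 18 libraries, so it was tested only through the younger series. Its lower values at 96 hpf, and its part in the counts and medians here, are thus not independent of the filter. The median of the 9 was -1.08 in knockout and -1.08 in wildtype water, where the median of all genes was 0.15 and 0.20. In wildtype water the 3 libraries of each gene at 96 hpf lay below all 3 at 48 hpf for 9 of 9 genes, an arrangement held by 14% of all genes, and in knockout water for 7 of 9, against 11.3%. TMM rescaling shifted the median gene by -0.17 in knockout and -0.18 in wildtype, and the share of calls that were higher was then 52.9% in knockout and 55.9% in wildtype, against 71.2% and 70.4% before rescaling. With that rescaling the median of the 9 was -1.27 in each genotype, and all 9 kept their sign.

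Cyclin B1 had the steepest fall in wildtype. There ccnb1 held 5.24, 6.88 and 5.36 at 96 hpf against 39.6, 48.4 and 31.5 at 48 hpf in wildtype water (log2 change -2.57 ± 0.34, adjusted p = 2.07e-08 in limma). The 96 hpf values rest on 5, 8 and 5 recovered reads. Over the other settings and with single pools left out the change ran from -2.83 to -2.04. In knockout water ccnb1 held 14.3, 8.35 and 8.92 at 96 hpf against 17.5, 29.3 and 21.6 at 48 hpf (-1.05 ± 0.34, adjusted p = 0.0198 in limma). The fall was thus less steep in knockout by 1.51 ± 0.47, but this difference did not pass (adjusted p = 0.0932 in limma), except with a pseudocount of 5 (adjusted p = 0.0378). It passed for none of the 9, and 1.89% of all genes were called. The call in knockout ended without the 48 hpf water replicate 2 or the 96 hpf water replicate 2 or 3.

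The checkpoint and chromosome genes fell as well. The cdc20 change was -1.43 ± 0.34 in knockout and -1.93 ± 0.34 in wildtype water. The mki67 libraries held 96.6, 89.8 and 89.2 at 96 hpf against 156, 233 and 205 at 48 hpf in knockout water (-1.08 ± 0.18), and 95.4, 98 and 104 against 221, 197 and 173 in wildtype water (-0.98 ± 0.18). The top2a change was -1.13 in knockout and -1.08 in wildtype. Both genotypes thus had the same sign in all 9 genes, and aurkb did not pass in either, at -0.35 in knockout and -0.70 in wildtype, though with TMM rescaling it passed in wildtype (-0.89, adjusted p = 0.0409). For bub1 the change was -1.15 in knockout (adjusted p = 0.0427 in limma) and -0.82 in wildtype (adjusted p = 0.14 in limma). The call of bub1 in knockout ended without the low-value filter, and without the 48 hpf water replicate 2 or 3 or the 96 hpf water replicate 1, and that of cdk1 in wildtype (-0.69) ended without the 48 hpf water replicate 1 or the 96 hpf water replicate 3.

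**Figure D2:**
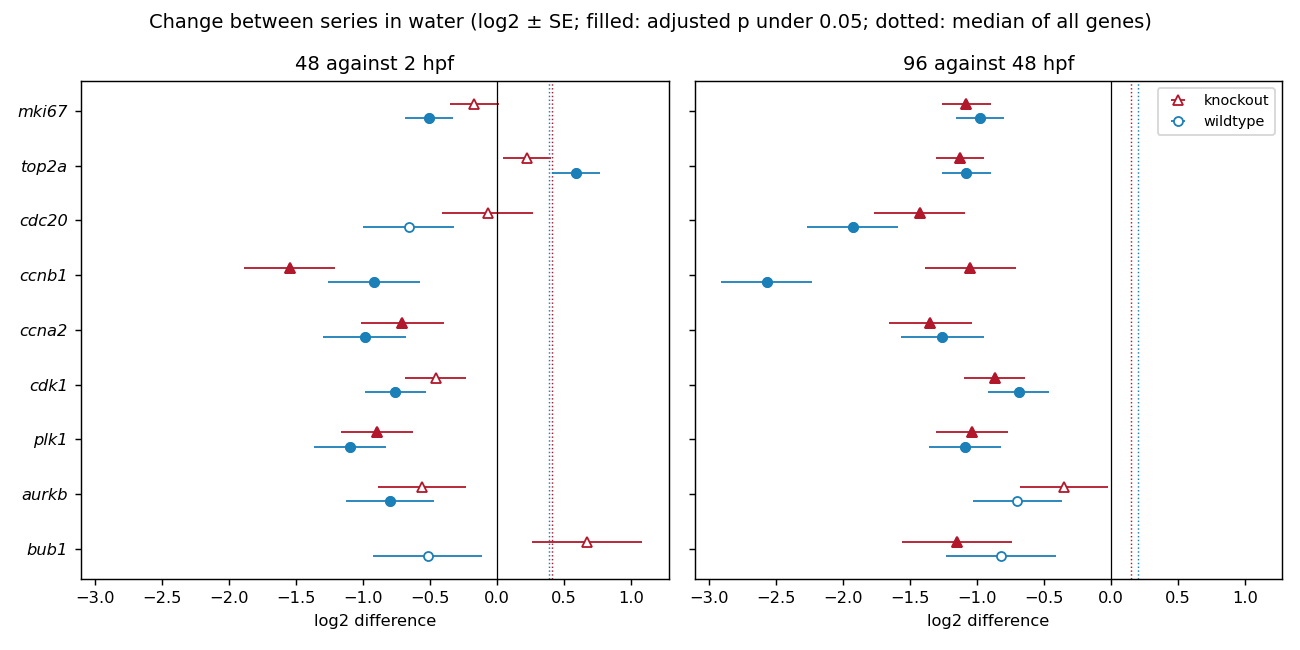
Change in water between the series, as log2 difference ± SE, for each gene in nfe2 knockout (triangles) and wildtype (circles); filled symbols passed the test and dotted lines mark the median of all 13205 genes. Between 48 and 96 hpf all 9 genes lie left of 0 in both genotypes, and ccnb1 in wildtype lies farthest left, at -2.57. Its wildtype water libraries at 96 hpf held 5, 8 and 5 recovered reads.

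In the 2 hpf series 4 of the 9 mitosis genes were called lower in the knockout than in the wildtype in water, 6 of 9 in diquat and 0 of 9 in tBOOH, and in water bub1 and cdc20 had the largest differences. In water all 9 differences were negative, with a median of -0.34 where the median of all 7783 genes tested was -0.02. Called lower were 4 of the 9 (cdc20, bub1, plk1 and aurkb), against 15.4% of all genes, and 31.3% of all genes were called in either direction. The same 4 had every knockout library below every wildtype library, an arrangement held by 22.8% of all genes. The calls among the 9 thus stand against a background of many genotype differences.

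The activator of the anaphase-promoting complex, cdc20, held 23.9, 38.3 and 22.0 in knockout water against 74.3, 86.3 and 55.3 in wildtype water. Every knockout library lay below every wildtype library, and the log2 difference was -1.35 ± 0.24 (adjusted p = 1.07e-04 in limma). The checkpoint kinase gene bub1 held 12, 8.20 and 3.67 in knockout water against 32.2, 21.0 and 16.4 in wildtype water, with no overlap (-1.50 ± 0.36, adjusted p = 0.002 in limma). For plk1 the values were 42.2, 47.4 and 52.3 in knockout water and 81.2, 85.5 and 68.2 in wildtype water (-0.71 ± 0.18, adjusted p = 0.00339 in limma).

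Aurora B mRNA was less firmly different. Its gene aurkb held 20.4, 28.2 and 16.5 in knockout water against 39.1, 31.5 and 34.5 in wildtype water (-0.69 ± 0.23, adjusted p = 0.0248 in limma), and dropping the low-value filter or leaving out replicate 1 or 3 of either group ended the call (adjusted p up to 0.148). The cyclin and Cdk1 genes overlapped between the genotypes in water, at -0.15 for ccnb1, -0.04 for ccna2 and -0.33 for cdk1. So did mki67 (-0.34, adjusted p = 0.0815 in limma) and top2a (-0.31), and mki67 passed without knockout water replicate 2 or wildtype water replicate 3 (adjusted p = 0.0271 and 0.0459).

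With diquat the genotype difference took in more of the genes. Lower in the knockout were 6 of the 9, against 21.2% of all genes, and all 9 had every knockout diquat library below every wildtype diquat library, against 25.7% of all genes. The median of the 9 was -0.70 and that of all genes 0.01. For cdc20 the libraries held 17.5, 25.4 and 16.5 in knockout diquat against 81.5, 67.2 and 75.8 in wildtype diquat (-1.88 ± 0.24, adjusted p = 4.62e-07 in limma). For mki67 they held 146, 186 and 154 in knockout diquat against 255, 266 and 265 in wildtype diquat (-0.70 ± 0.15, adjusted p = 4.15e-04 in limma), and for top2a 80.5, 82.9 and 66.1 against 120, 113 and 118 (-0.61 ± 0.17, adjusted p = 0.00537 in limma). In all 3 the groups were apart.

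The differences in diquat were -0.79 for plk1, -0.70 for aurkb and -1.17 for bub1, each called. The call of aurkb ended without wildtype diquat replicate 1 (adjusted p = 0.112) and that of bub1 without knockout diquat replicate 2 (adjusted p = 0.0591). The cyclin and Cdk1 genes were at -0.35 for ccnb1, -0.42 for ccna2 and -0.43 for cdk1 and did not pass (adjusted p between 0.052 and 0.0932 in limma). With TMM rescaling all 3 passed, and with edgeR ccna2 and cdk1 did.

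After tBOOH none of the 9 was called between knockout and wildtype at 2 hpf, where 6.37% of all genes were called lower and 14.2% in either direction. Their median was -0.13, 2 of them (ccna2 and bub1) had every knockout library below every wildtype library against 14.9% of all genes, and 0 of the 9 had an unadjusted p under 0.05 in limma. The 2 largest differences were those of bub1 (-0.67, adjusted p = 0.23 in limma) and cdc20 (-0.45, adjusted p = 0.22 in limma). For cdc20 the libraries held 30.4, 29.5 and 34.3 in knockout tBOOH against 57.8, 33.9 and 41.1 in wildtype tBOOH. The knockout tBOOH values lay within the range of knockout water, and 2 of the 3 wildtype tBOOH values lay below all 3 of wildtype water.

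Whether the genotype difference itself depended on the treatment was tested with the interaction, and none of the 9 genes passed for either oxidant. The knockout response less the wildtype response to diquat ran from -0.54 ± 0.34 for cdc20 to 0.33 for bub1. To tBOOH it ran from -0.21 for ccna2 to 0.89 ± 0.34 for cdc20 (adjusted p = 0.219 in limma), with 2 genes at an unadjusted p under 0.05. Without knockout water replicate 2 that of cdc20 passed (adjusted p = 0.0412). In edgeR too none of the 9 was called in either. Of all genes, 0.938% were called for diquat and 0.0128% for tBOOH.

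**Figure D3:**
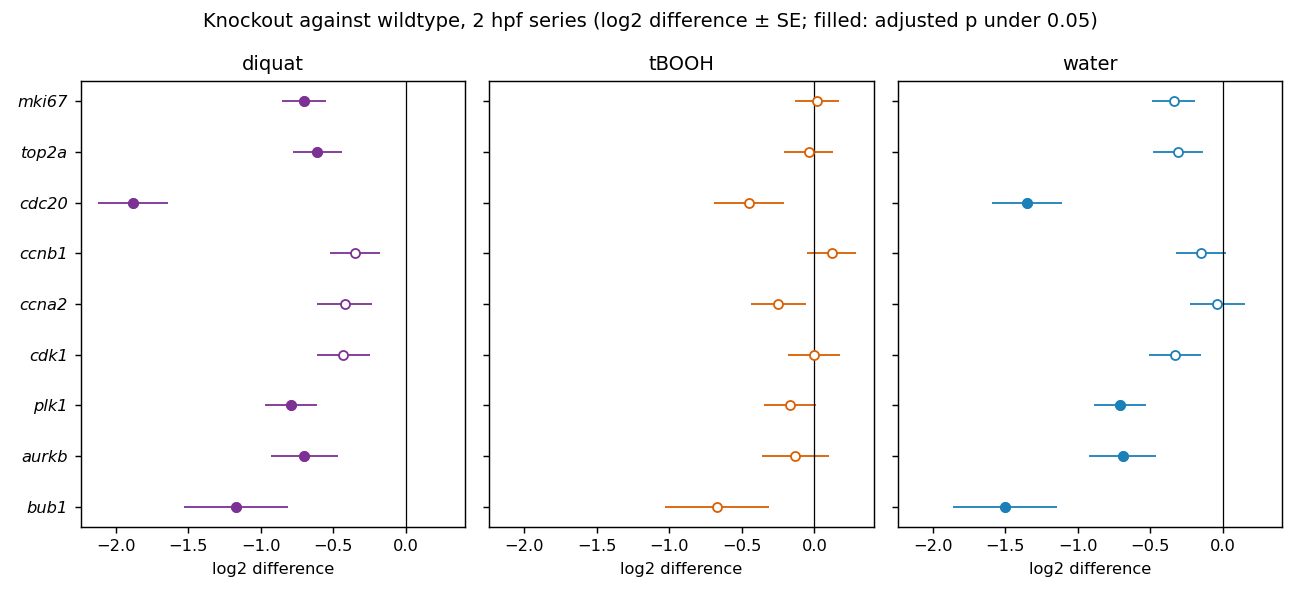
Knockout against wildtype in the 2 hpf series, as log2 difference ± SE for each gene, in diquat, tBOOH and water; filled symbols passed the test. In diquat and water all 9 points lie left of 0, with cdc20 at -1.88 in diquat and -1.35 in water, whereas in tBOOH all 9 are open.

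Other genes of the mitotic machinery were described from lists chosen with earlier results of these data known. Their counts stand against 15.4% of all genes called lower and 15.9% called higher in knockout against wildtype water at 2 hpf. In knockout against wildtype water at 2 hpf, 11 of 24 tested condensin, cohesin and separase genes fell and 1 rose, among them smc2 of condensin (-1.34), smc1al of cohesin (-1.04) and the cohesin release factors wapla (-1.15) and waplb (-1.27). Of 30 spindle motor, spindle assembly and cytokinesis genes 8 fell and 1 rose, with falls of ckap5 (-1.29), tpx2 (-0.78), hmmr (-0.95) and tacc3 (-0.79), which encode proteins of spindle microtubules. Of 25 spindle checkpoint and kinetochore genes 4 fell and 2 rose: the checkpoint gene bub1bb was at -2.17 and cenpf at -1.09, while the centromere genes cenpw and cenpp were at 1.54 and 1.20. The median log2 differences of these 3 lists were -0.56, -0.33 and -0.23, and that of all genes was -0.02.

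The remaining lists of the same comparison stand against the same shares of all genes, 15.4% lower and 15.9% higher. Of 15 genes for mitotic kinases, their regulators and the passenger complex 3 fell (pbk, aurka and cdca8, at -0.74, -0.94 and -0.58), and of 15 anaphase-promoting complex genes 2 rose and 2 fell. Among 10 other cyclins and cyclin-dependent kinases 3 rose, the cyclin genes ccnf (1.24) and ccnd1 (0.80) and mnat1 (0.81), a subunit of the Cdk-activating kinase, and none fell. Of 31 DNA synthesis genes 6 fell and 4 rose, with pola2, a subunit of DNA polymerase alpha, at -1.07. The gene rrm2 (ENSDARG00000020711), for a subunit of ribonucleotide reductase, was at 1.22. Another gene of the same name (ENSDARG00000078069) is also on the list, and its value is not given here. Of 19 cell cycle transcription factor genes 2 rose, and of 11 cell cycle inhibitors and p53 targets 1 rose and 1 fell.

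With diquat the counts of knockout against wildtype stand against 21.2% of all genes called lower and 23.8% called higher. Of 30 spindle motor, spindle assembly and cytokinesis genes 13 fell and 3 rose (median -0.57), with NUMA1, whose product gathers microtubules at spindle poles, at -1.95, ckap5 at -1.67, tpx2 at -1.16 and the motor gene kif11 at -0.98. Of 25 spindle checkpoint and kinetochore genes 9 fell and 2 rose (median -0.27), of 15 mitotic kinases and regulators 5 fell (median -0.37) and of 24 condensin and cohesin genes 9 fell and 2 rose (median -0.47). Of 31 DNA synthesis genes 11 fell and 4 rose (median -0.43). For these lists no difference between diquat and water was tested.

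Gastrula and early segmentation genes were called about as often as all genes, whereas too few maternal transcripts could be tested to compare. Of 36 gastrula and early segmentation genes 5 were higher and 7 lower in knockout than in wildtype water at 2 hpf, where 15.9% of all genes were called higher and 15.4% lower, with cyp26a1 at -1.03, vox at -1.20, ripply1 at 0.92 and shha at 1.05. Of 3 maternal transcripts that could be tested 1 was higher, npm2b at 1.03. The medians of the 2 lists in water were -0.11 and 0.96, where that of all genes was -0.02. Of the maternal transcripts, npm2b (1.55) and zar1 (1.37) were called higher in diquat, where 23.8% of all genes were. In tBOOH dnd1 was called lower (-2.47), where 6.37% of all genes were. The part of these lists in the lower levels of cdc20, bub1, plk1 and aurkb was not tested.

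At 96 hpf tBOOH lowered the proliferation marker mki67 in both genotypes. In knockout embryos mki67 held 27.2, 46.5 and 41.1 after tBOOH against 96.6, 89.8 and 89.2 in water (log2 difference -1.28 ± 0.21, adjusted p = 9.05e-05 in limma). In wildtype embryos it held 47.4, 51.3 and 37.1 after tBOOH against 95.4, 98 and 104 in water (-1.13 ± 0.21, adjusted p = 0.00153 in limma). All 3 tBOOH libraries lay below all 3 water libraries in each genotype, as for 10.3% of all genes in knockout and 10.6% in wildtype. The call held in every alternative setting and with any single pool left out.

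Called lower were 2 of the 8 tested genes in knockout tBOOH, against 2.04% of all 11436 genes tested, and 2 of 8 in wildtype tBOOH, against 0.769%. All 8 were negative in both genotypes, with a median of -0.66 in knockout and -0.80 in wildtype, where the median of all genes was 0.00 in each. The ninth gene, bub1, reached 10 normalised counts in 1 of 18 libraries and was not tested. It held 3.03, 2.27 and 3.24 in knockout tBOOH against 2.2, 6.27 and 7.81 in knockout water, and 6.61, 3.27 and 3.18 in wildtype tBOOH against 9.43, 6.02 and 9.64 in wildtype water. Of the 8 that were tested, ccna2, ccnb1, cdc20 and aurkb passed the filter through 4 to 7 libraries of 4 groups, so that their values rest on few recovered reads. For ccna2 and cdc20 these libraries were all of water or diquat, and no tBOOH library reached 10. For aurkb the wildtype tBOOH libraries reached 11.7, but those of knockout tBOOH at most 6.49. The lower values of ccna2 and cdc20 after tBOOH, and that of aurkb in knockout, are thus not independent of the filter. The same holds for their part in the counts and medians of the 8.

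Topoisomerase II alpha was the other gene called in wildtype. There top2a held 30.9, 30.5 and 37.1 after tBOOH against 59.7, 74.8 and 76.0 in water (-1.07 ± 0.22, adjusted p = 0.00427 in limma). In knockout it held 27.2, 30.6 and 28.1 after tBOOH against 42.8, 42.8 and 40.2 in water, also without overlap, and did not pass (-0.54 ± 0.22, adjusted p = 0.152 in limma). There 10.3% of all genes were lower without overlap. The difference between the 2 responses was 0.54 ± 0.31 (adjusted p = 0.848 in limma), so the responses were not shown to differ.

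In knockout the other gene called was that of cyclin A2, at low counts. It held 1.51, 1.13 and 5.41 after tBOOH against 9.88, 5.22 and 13.4 in water, with 1 tBOOH library just above the lowest water library (ccna2, -1.61 ± 0.48, adjusted p = 0.0365 in limma). The call ended with a pseudocount of 5, without the low-value filter and in edgeR. Leaving out water replicate 1 or 3, or tBOOH replicate 1 or 2, also ended it, with adjusted p up to 0.191. In wildtype ccna2 held 5.51, 6.55 and 9.53 after tBOOH against 9.43, 4.30 and 11.8 in water (-0.15), and the difference between the responses did not pass (-1.46 ± 0.68, adjusted p = 0.748 in limma).

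The kinase cdk1 held 10.6, 6.80 and 14.1 in knockout tBOOH against 14.3, 18.8 and 22.3 in knockout water, and 8.82, 5.45 and 13.8 in wildtype tBOOH against 23.1, 21.5 and 19.3 in wildtype water. In both genotypes the groups did not overlap, where 10.3% of all genes in knockout and 10.6% in wildtype were lower without overlap. Neither difference passed (-0.79 in knockout, adjusted p = 0.181, and -1.18 in wildtype, adjusted p = 0.0629 in limma). In wildtype it passed with edgeR (adjusted p = 0.0451) and when the fit held the compared groups alone (adjusted p = 0.02). The values of the remaining genes were -0.48 in knockout and -0.75 in wildtype for cdc20, -0.95 and -0.84 for aurkb, -0.36 and -0.56 for plk1, and -0.45 and -0.37 for ccnb1.

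Of 24 tested genes of DNA synthesis 7 fell after tBOOH at 96 hpf in knockout and 5 in wildtype, where 2.04% and 0.769% of all genes were called lower. The log2 difference was negative for 23 of 24 in each, with medians of -0.78 and -0.84. The sliding clamp gene pcna was at -1.39 in knockout and -0.96 in wildtype, the DNA ligase gene lig1 at -1.20 and -1.29, and rrm2 (ENSDARG00000020711) at -1.50 and -1.85. Of 13 cell cycle inhibitors and p53 targets 5 rose in knockout, with the antiproliferative genes btg1 at 1.14 and btg2 at 2.55, gadd45ba at 1.61 and sesn1 at 0.92, and 1 rose in wildtype, btg1 at 0.65. Of all genes 5.46% were called higher in knockout and 1.53% in wildtype. For these lists the difference between the genotypes was not tested as a whole.

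The other mitotic lists after tBOOH at 96 hpf stand against the same shares of all genes. These were 2.04% lower and 5.46% higher in knockout, and 0.769% lower and 1.53% higher in wildtype. Of 23 spindle motor and assembly genes kif23 (-1.24) and kif11 (-0.97) fell in wildtype, and kif15 rose in knockout (1.25). Of 20 condensin and cohesin genes smc2 (-1.48) and ncapd2 (-1.13) fell in knockout and none in wildtype. Among the kinases and regulators plk2b, a Polo-like kinase gene that responds to stress in mammals, rose in knockout (1.7). The anaphase-promoting complex gene cdc23 fell in both, at -0.96 in knockout and -0.92 in wildtype, as did rbbp4 of the MuvB complex, at -1.11 and -1.21. None of 12 spindle checkpoint and kinetochore genes and none of 7 other cyclins and kinases was called in limma. At an unadjusted p under 0.05 there were 1 and 2 in knockout, and 3 and 0 in wildtype.

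**Figure D4:**
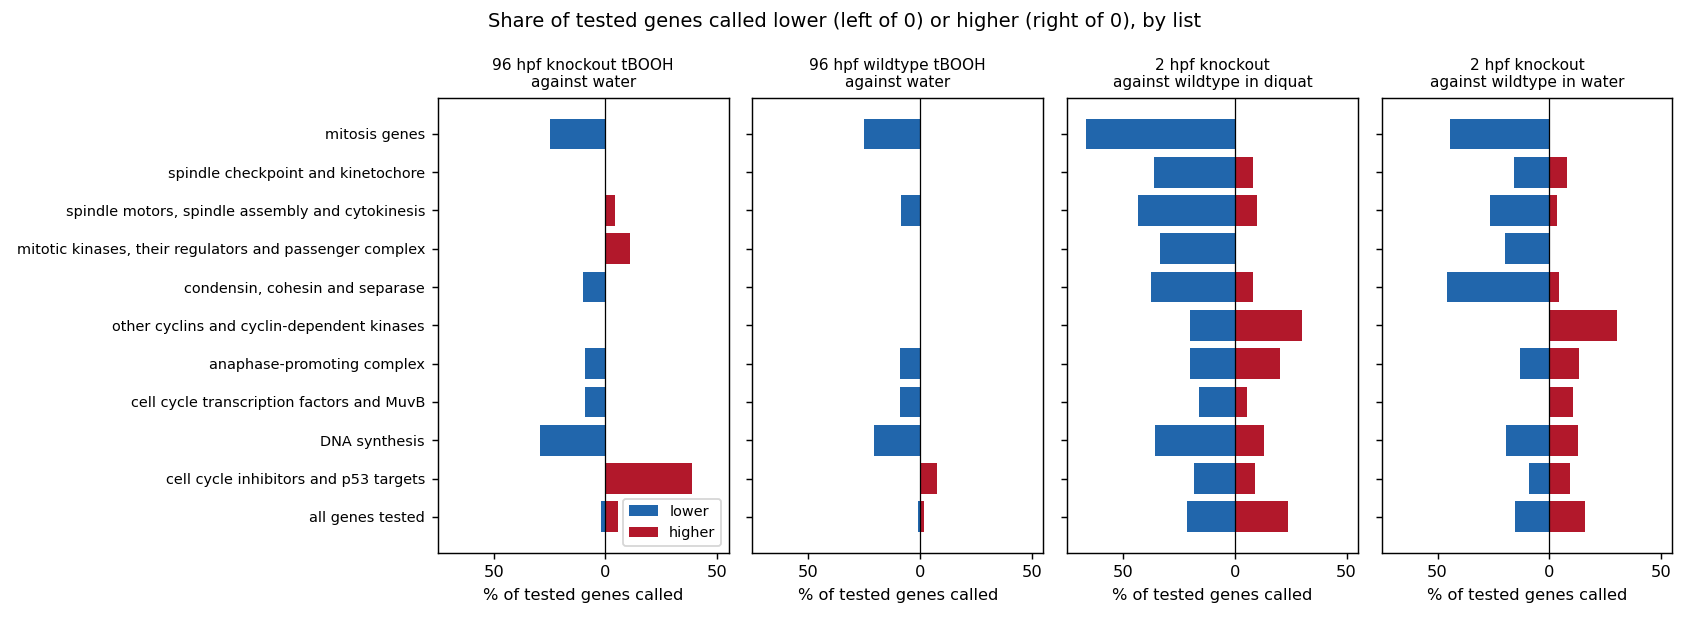
Percent of the tested genes of each list called lower (blue, left of 0) and higher (red, right of 0) in limma, for tBOOH against water at 96 hpf and for knockout against wildtype at 2 hpf. After tBOOH at 96 hpf the mitosis genes (2 of 8 in each genotype) and DNA synthesis genes (7 of 24 in knockout, 5 of 24 in wildtype) stand to the left of the row for all genes. So do condensin and cohesin genes in knockout and spindle motor and assembly genes in wildtype, among others. The 2 of 8 in knockout include ccna2, whose lower value after tBOOH is not independent of the filter on low values.

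With diquat no change of the 9 genes passed the test at any stage. Over the 6 comparisons of diquat with water, 0 of 52 tests of these genes passed in limma. In knockout 3.74%, 0% and 0.315% of all genes were called at 2, 48 and 96 hpf, and in wildtype 0.964%, 0.0411% and 0.245%. Of all genes in knockout at 2 hpf edgeR called 139 against 291 in limma, and with TMM rescaling none was called. In edgeR too none of the 9 was called. At an unadjusted p under 0.05 in limma there was 1 gene in knockout at 2 hpf, and none in knockout at 48 or 96 hpf. In wildtype there was none at 2 hpf, 1 at 48 hpf and 1 at 96 hpf. The nearest to a call was mki67 in the knockout at 2 hpf (-0.45 ± 0.15, adjusted p = 0.081 in limma). It held 146, 186 and 154 in diquat against 215, 257 and 193 in water. These groups did not overlap, where 6.27% of all genes were lower without overlap.

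Without knockout diquat replicate 2, or without knockout water replicate 3, that difference of mki67 passed (adjusted p = 0.0448 and 0.033). At 96 hpf mki67 held 98.3, 105 and 88.5 in knockout diquat against 96.6, 89.8 and 89.2 in knockout water, which overlapped. In wildtype it held 77.4, 78.4 and 53 in diquat against 95.4, 98 and 104 in water, with no overlap (-0.52 ± 0.21, adjusted p = 0.747 in limma). There 8.29% of all genes were lower without overlap.

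In the younger series tBOOH gave no call among the 9 in limma. In wildtype at 2 hpf 7 of 9 were negative, with a median of -0.34 against 0.03 for all genes, of which 2.83% were called, and 3 of the 9 had an unadjusted p under 0.05. The plk1 libraries held 57.8, 45.3 and 52.3 in tBOOH against 81.2, 85.5 and 68.2 in water (-0.59 ± 0.18, adjusted p = 0.0686 in limma). They did not overlap, where 11.8% of all genes were lower without overlap, and plk1 passed with edgeR (adjusted p = 0.0424). The cdc20 libraries held 57.8, 33.9 and 41.1 in tBOOH against 74.3, 86.3 and 55.3 in water, with overlap (-0.70 ± 0.24, adjusted p = 0.0969 in limma). Both passed when the fit held the compared groups alone, and both passed without wildtype tBOOH replicate 1. In knockout at 2 hpf the median was 0.06, with none of the 9 at an unadjusted p under 0.05, none called in edgeR and 0% of all 7783 genes called in limma (477 at an unadjusted p under 0.05, and 0 called in edgeR).

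At 48 hpf the measured differences of the cyclin B1 gene from water had opposite signs in the 2 genotypes, and neither passed the test. In knockout ccnb1 held 38.2, 34.4 and 34.9 after tBOOH against 17.5, 29.3 and 21.6 in water (0.66 ± 0.24, adjusted p = 0.555 in limma), and in wildtype it held 20.4, 24.5 and 22.0 after tBOOH against 39.6, 48.4 and 31.5 in water (-0.79 ± 0.24, adjusted p = 0.378 in limma). Both pairs of groups were apart, in opposite order. The interaction was 1.45 ± 0.35, with an unadjusted p of 4.46e-04 and an adjusted p of 0.434, and in that comparison 0% of all 9725 genes were called (622 at an unadjusted p under 0.05, and 0 called in edgeR). With diquat ccnb1 held 37.5, 36.3 and 20.8 in knockout and 25.2, 23.4 and 28.4 in wildtype, and the interaction was 1.03 ± 0.35 (adjusted p = 0.993 in limma). The oxidant comparisons share their water groups, and the knockout and wildtype water levels of ccnb1 themselves stood apart.

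The other 8 genes differed less between tBOOH and water at 48 hpf, between -0.14 and 0.37 in knockout and between -0.41 and 0.29 in wildtype. For mki67, which fell at 96 hpf, the 48 hpf libraries held 183, 236 and 237 in knockout tBOOH against 156, 233 and 205 in knockout water, and 209, 217 and 205 in wildtype tBOOH against 221, 197 and 173 in wildtype water. The groups overlapped in both genotypes. Of all genes, 0.195% were called in knockout and 0.165% in wildtype.

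Differences of the tBOOH response between stages were tested after the values had been seen. The response of mki67 at 96 hpf less that at 48 hpf was -1.43 ± 0.25 in knockout (adjusted p = 9.86e-04 in limma) and -1.23 ± 0.25 in wildtype (adjusted p = 0.0265 in limma). Less that at 2 hpf it was -1.34 ± 0.25 in knockout (adjusted p = 8.28e-04 in limma) and -0.82 ± 0.25 in wildtype, which did not pass (adjusted p = 0.127 in limma). Of the other 8 genes only cdk1 passed in the main fit in any of these 4 comparisons, for 96 less 48 hpf in wildtype (-1.45 ± 0.33, adjusted p = 0.0333 in limma). In the same comparison top2a did not pass (adjusted p = 0.0617 in limma). It passed with a pseudocount of 5 (adjusted p = 0.0447) and when the fit held the compared groups alone (adjusted p = 0.0208). Of all 13205 genes, 0.235% were called lower for 96 less 48 hpf in knockout and 0.0833% in wildtype. For 96 less 2 hpf 0.704% were called lower in knockout, and 0.719% in either direction in wildtype.

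The call of mki67 for 96 less 48 hpf in wildtype ended in 7 of 12 fits that left out a single pool, and that of cdk1 in 10 of 12. The call of cdk1 also ended with edgeR and when the fit held the compared groups alone. The pools were, for both genes, 48 hpf water replicates 2 and 3, 48 hpf tBOOH replicates 2 and 3 and 96 hpf water replicates 2 and 3. For mki67 96 hpf tBOOH replicate 3 was the other, and for cdk1 the others were 48 hpf tBOOH replicate 1, 96 hpf water replicate 1 and 96 hpf tBOOH replicates 1 and 2. In knockout neither call of mki67 was lost by leaving out a pool, but that for 96 less 48 hpf ended when the fit held the compared groups alone (adjusted p = 0.0953).

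**Figure D5:**
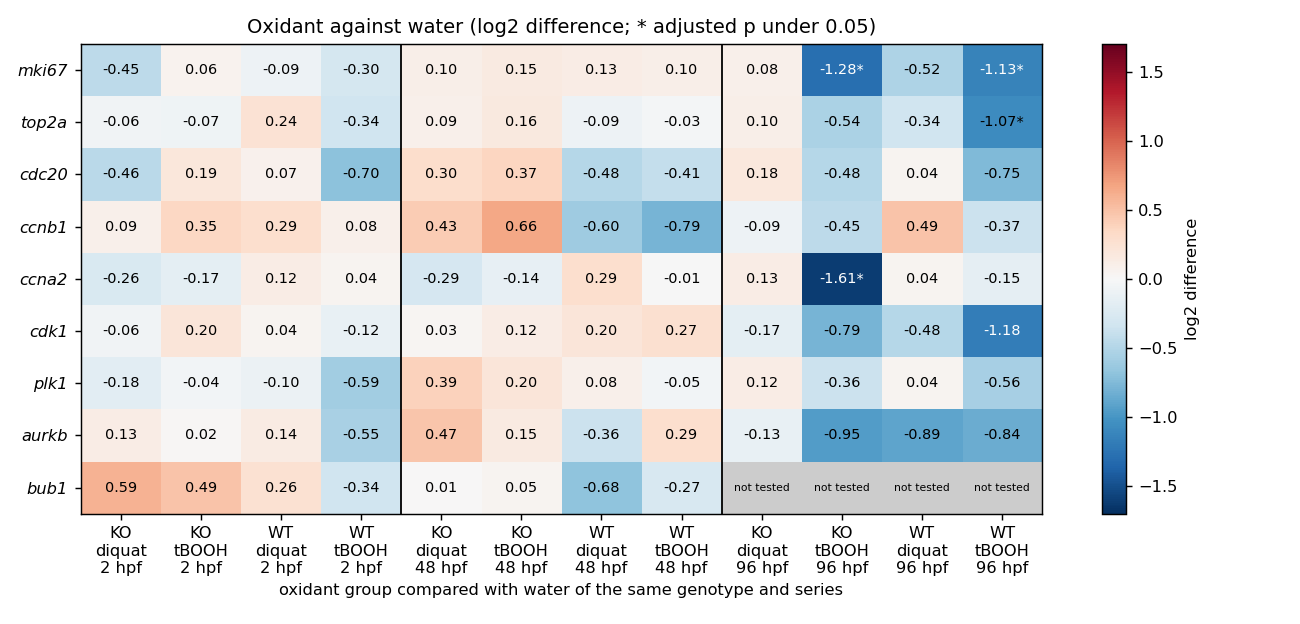
Each oxidant against water of the same genotype and series, as log2 difference (colour and number; blue lower, red higher) for the 9 genes; asterisks mark adjusted p under 0.05 in limma and grey cells were not tested. The 4 asterisks are those of mki67 in both genotypes, top2a in wildtype and ccna2 in knockout, all after tBOOH at 96 hpf.

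In the older series top2a was the gene called between the genotypes in water. At 96 hpf it held 42.8, 42.8 and 40.2 in knockout water against 59.7, 74.8 and 76.0 in wildtype water (-0.72 ± 0.22, adjusted p = 0.0159 in limma), the 1 call among 8 genes, where 13.1% of all genes were called lower and 23% in either direction. With 1 call among 8, these genes were called lower at 96 hpf about as often as all genes. The call of top2a ended without knockout water replicate 3 or wildtype water replicate 2 or 3 (adjusted p up to 0.0647). At 48 hpf it held 78.9, 98.4 and 104 in knockout water against 147, 167 and 134 in wildtype water (-0.67 ± 0.17, adjusted p = 0.0413 in limma), the 1 call among 9, where 0.977% of all genes were called lower. Both times every knockout library lay below every wildtype library, an arrangement held by 9.2% of all genes at 48 hpf and 21.4% at 96 hpf. In water at 96 hpf ccnb1 lay the other way, with every knockout library above every wildtype library, as did 22.1% of all genes.

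The 48 hpf call of top2a held in 5 of 12 other settings. It ended without the low-value filter, when the fit held the compared groups alone, and without knockout water replicate 1 or 3 or any wildtype water replicate (adjusted p up to 0.237). With diquat and tBOOH at 48 hpf top2a was also lower in knockout, at -0.49 and -0.48, without overlap and without passing. Of all genes 10.8% in diquat and 8.03% in tBOOH were lower without overlap. Cyclin B1 was lower in knockout water at 48 hpf, at -0.79 ± 0.24 (adjusted p = 0.0899 in limma), and cdc20 at -0.76 (adjusted p = 0.199 in limma). Both were without overlap, as were 9.2% of all genes. Without knockout water replicate 2 ccnb1 passed (adjusted p = 0.0284).

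The other genotype comparisons of the older series held no call in limma. At 48 hpf, 0 of 9 passed in diquat and in tBOOH, with 1 and 2 genes at an unadjusted p under 0.05, where 1.13% and 0.967% of all genes were called. At 96 hpf, 0 of 8 passed in diquat and in tBOOH, with 1 gene each at an unadjusted p under 0.05, where 14.1% and 20.7% were called. None of the 9 was called in these by edgeR. Every knockout library lay above every wildtype library for mki67 in diquat at 96 hpf and for ccnb1 in tBOOH at 48 hpf. Of all genes 14.1% and 6.7% were higher without overlap in those comparisons. Lower without overlap were ccna2 and top2a in diquat and top2a and cdk1 in tBOOH at 48 hpf, and ccna2 in tBOOH at 96 hpf. The shares of all genes there were 10.8%, 8.03% and 18%. In tBOOH at 96 hpf ccna2 was at -1.30 ± 0.48 (adjusted p = 0.0531 in limma). It passed without knockout tBOOH replicate 3 (adjusted p = 0.016). At 96 hpf neither oxidant gave an interaction past the test, nor did either at 48 hpf, so that 0 of 52 interaction tests of these genes passed over the 3 series. Of all genes 0.00874% passed at 96 hpf for diquat and 0.324% for tBOOH, and 0% at 48 hpf for each.

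In 3 of the 18 groups a single pool was the lowest or the highest of 3 for at least 7 of the 9 genes. In knockout water at 48 hpf replicate 1 was the lowest of 3 for 7 of the 9, and in knockout diquat at 48 hpf replicate 1 was the highest for 8. In wildtype diquat at 2 hpf replicate 1 was the highest for 7. The summed count ran from 364 to 512 in knockout water at 48 hpf, a wider spread than the 208 to 212 of knockout water at 96 hpf.

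The genes whose pattern was most like that of the 9 were found over the 18 group means of log2(value + 1), among 4949 genes with a mean of at least 20, as a description with no test. The groups share stages and size factors, and the likeness was not measured within a stage. Highest was tpx2 (Pearson r = 0.986), a spindle assembly factor that activates Aurora A, followed by the histone chaperone gene nasp (0.981) and the RCC1-family gene rcc2 (0.980). Next were si:ch211-14k19.12 and pbrm1l (both 0.976), espl1 (0.975), which encodes separase, rbbp4 (0.974), the histone deacetylase gene hdac1 (0.973), si:ch211-146f2.7 (0.972) and the kinetochore motor gene cenpe (0.970). Among the 9 themselves r with their common pattern ran from 0.852 for top2a to 0.982 for cdk1, and each of them is part of that pattern.

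The levels of tpx2 give the shape of the pattern. Its group means are given here as means of log2(value + 1) turned back to the scale of the values. At 2 hpf these were 44.8, 60.7 and 54.4 in knockout diquat, tBOOH and water, against 101, 66.1 and 94.1 in wildtype diquat, tBOOH and water. At 96 hpf they were 15.6, 10.7 and 19.7 in the same knockout groups, against 18.2, 13.1 and 20.8 in wildtype. The tBOOH group had the lowest mean of the 3 in each genotype at 96 hpf. Because tpx2 was chosen for its likeness to the 9 genes over these same groups, this is no separate support for their pattern.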

How the data were processed

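Strand-specific libraries of poly(A) RNA were sequenced as pairs of 50 bases, per the labels' protocols. Per the submitters' processing notes the tools were FastQC 0.11.4, TopHat2 2.0.14, Bowtie2 2.2.5, SAMtools 0.1.19, HTSeq and DESeq2 1.10.1 in R 3.2.3, with the build GRCz10. How HTSeq treated strand, overlapping genes and paralogs is not given in the sources used here. The authors deposited a signal for each gene and library, in which the count of a gene is divided by a size factor (0.571 to 1.42 over the libraries). Whole reads were recovered from the steps between values, with 100% of values whole within 0.01 read, a check that says little for 3 libraries whose size factor is close to 1.

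Linear models on log2(value + 1) were fitted with limma 3.58.1 in R 4.3.3 (empirical Bayes with a mean trend) to the 18 libraries of each series. Genes needed 3 libraries with a value of at least 10, which left 7783, 9725 and 11436 genes at 2, 48 and 96 hpf. Changes between series came from a fit of all 54 libraries (13205 genes). Calls are Benjamini-Hochberg adjusted p under 0.05 over all genes tested. Fold changes on this scale understate changes of low genes. The same results were computed with a pseudocount of 5, without the low-value filter, after TMM rescaling, with a replicate block, with only the compared groups, with edgeR 4.0.16 (quasi-likelihood test) on recovered reads, and without each pool in turn. In knockout against wildtype water at 2 hpf, for example, edgeR called 2652 genes and limma 2436. The scripts were tested on simulated data. Replicate numbers were not used to pair the libraries in the main fit. Deviations of same-numbered libraries correlated by 0.0377, -0.00964 and -0.000254 on average at 2, 48 and 96 hpf. Of 45 such pairs at each stage 8, 5 and 0 passed 0.1, and at 48 hpf they ran from -0.541 to 0.567. These averages cannot exclude that some libraries shared a batch.

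The 9 genes and the lists were chosen with earlier results of these data known. Named are the 9 genes, nfe2, up to 4 called genes of a list with the smallest p, and the 10 genes most like the 9.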

Additional observations from a re-analysis of the deposited data

Results flagged for a closer look

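The response to tBOOH differed between stages for 4 combinations of gene and comparison, by a test of the difference itself in the fit of all 54 libraries. These tests were chosen after the values had been seen. For mki67 the response at 96 hpf less that at 48 hpf was -1.43 in knockout and -1.23 in wildtype, and less that at 2 hpf it was -1.34 in knockout, on the log2 scale. For cdk1 the response at 96 hpf less that at 48 hpf was -1.45 in wildtype. Adjusted p ran between 8.28e-04 and 0.0333 in limma. Only the call of mki67 in knockout for 96 less 2 hpf held in every other setting and with any single pool left out. Of all genes 0.0833% (wildtype, 96 less 48 hpf), 0.235% (knockout, 96 less 48 hpf) and 0.704% (knockout, 96 less 2 hpf) were called lower. What accounts for the differences was not tested.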

How the results depend on the processing

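Of 222 recounts of calls under other settings 208 stayed within 1.5 times the count reported, and of 294 that left out a pool 259 did. Many comparisons had 0 calls, and a recount of 0 there was scored as unchanged, so these totals say little about the calls made. Of 45 single calls 28 held throughout and 0 changed sign. With edgeR the counts became 1 (2 hpf wildtype tBOOH), 1 (96 hpf knockout tBOOH), 5 (48 against 2 hpf, knockout) and 1 (tBOOH at 96 less 48 hpf, wildtype). With only the compared groups they became 2 (2 hpf wildtype tBOOH), 0 (48 hpf knockout against wildtype in water), 1 (96 hpf knockout tBOOH), 1 (tBOOH at 96 less 2 hpf, wildtype) and 0 (tBOOH at 96 less 48 hpf, knockout). Without the low-value filter they became 0 (48 hpf knockout against wildtype in water) and 1 (96 hpf knockout tBOOH). With a pseudocount of 5 they became 1 (96 hpf knockout tBOOH) and 1 (genotype difference in the change between 48 and 96 hpf). The replicate block made 1 call of 0 in knockout against wildtype in tBOOH at 96 hpf (ccna2, adjusted p = 0.0315) and moved no other count by over 1.5 times; the numbers are not known to pair pools. The cause of these changes was not tested.

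Leaving out each pool in turn gave these lowest and highest counts. At 2 hpf they were 0 and 2 in wildtype tBOOH, 0 and 1 in knockout diquat, 0 and 1 for the tBOOH interaction, 3 and 5 for knockout against wildtype in water, and 5 and 6 for the same in diquat. At 48 hpf they were 0 and 2 for knockout against wildtype in water. At 96 hpf they were 1 and 2 in knockout tBOOH, 2 and 3 in wildtype tBOOH, and 0 and 1 for knockout against wildtype in water and in tBOOH. Between 2 and 48 hpf they were 2 and 3 in knockout and 4 and 7 in wildtype, and between 48 and 96 hpf 6 and 8 in knockout and 6 and 7 in wildtype. For tBOOH at 96 less 48 hpf they were 1 and 2 in knockout and 0 and 2 in wildtype, and for 96 less 2 hpf 1 and 3 in knockout and 0 and 1 in wildtype. Low counts limit the 96 hpf values most, where ccnb1 rested on 2 to 13 and ccna2 on 1 to 12 recovered reads per library.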
